A study of Homo sapiens with 6 samples.

Results

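RNA polymerase III makes transfer RNAs and other short non-coding RNAs, and 10 genes that encode or restrain its initiation factors were followed here in MDA-MB-231, a triple-negative human breast cancer cell line. They are BDP1, BRF1 and BRF2 of the factor TFIIIB, GTF3C1 to GTF3C6 of the factor TFIIIC, and MAF1, the repressor of the polymerase. The genes were read by every probe set annotated to exactly 1 of these symbols, which gave 32 of the 49293 probe sets tested on the array. A probe set is a group of short oligonucleotides that reads a stretch of a transcript. The group was selected on the fold change of 1 BDP1 probe set between these same arrays, among the largest rises, so all values below describe these arrays and none of the members' differences is offered as a test.

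The study set MDA-MB-231 cells stably infected with a CTCF lentivirus (CTCF-OE) beside cells that carried a negative control lentivirus (NC), and read total RNA of 3 samples per group on 6 Affymetrix PrimeView arrays. By the methods, the CTCF lentivirus held the whole coding sequence of CTCF, a zinc finger protein of insulators and chromatin loops. The methods speak of independent experiments in general, but no source used here says whether the 3 arrays of a group came from separate cultures, so standard errors and p-values cover the spread of these 3 against 3 arrays alone, and that spread may be technical. Values are linear intensities that the authors had already brought to a common level, with array medians of 83.4 to 84.5.

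CTCF itself was not higher under its own label. Its probe set read 463, 442 and 489 under the NC label and 399, 388 and 399 under the CTCF-OE label, or -0.23 on the log2 scale (limma, standard error 0.047, adjusted p = 0.0639). Where in the CTCF transcript its oligonucleotides lie is not given in the sources used here, so it may or may not read the transgene. The arrays measure no protein, and directions are given by label throughout. The markers of the cell line were in part as its type implies. VIM and CD44, of mesenchymal and stem-like breast cancer cells, were brighter than 99.0% of all probe sets or more at their brightest probe set. PGR lay at the 6.28% point of the brightness scale, CDH1 at 17.4% and ESR1 at 43.2%, whereas ERBB2 (73.6%) and EPCAM (80.6%) were not dim. In such bulk RNA, fewer cells of a kind and less RNA per cell cannot be told apart.

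At a transfer RNA gene, TFIIIC binds promoter boxes that lie within the transcribed sequence and brings in TFIIIB, made of the TATA-binding protein, BRF1 and BDP1. TFIIIB then places the polymerase at the start site. At promoters that lie wholly upstream of the gene, BRF2 takes the place of BRF1. MAF1 holds the polymerase back when nutrients are short. TFIIIC also sits at chromosomal sites without polymerase, where it can act as a boundary element, a role it shares with CTCF.

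BDP1 is the gene that brought the group to attention, so its promoter is shown. The RefSeq window runs from 250 bases before to 50 bases after the annotated start, on the plus strand of chr5:71455401-71455700 (GRCh38.p14), and the capitals mark a cAMP response element (TGACGTCA), the motif of CREB and ATF factors. Among the other genes, GTF3C1 had the same motif, shown in a 60-base stretch of its promoter on the minus strand, chr16:27550008-27550067.
BDP1: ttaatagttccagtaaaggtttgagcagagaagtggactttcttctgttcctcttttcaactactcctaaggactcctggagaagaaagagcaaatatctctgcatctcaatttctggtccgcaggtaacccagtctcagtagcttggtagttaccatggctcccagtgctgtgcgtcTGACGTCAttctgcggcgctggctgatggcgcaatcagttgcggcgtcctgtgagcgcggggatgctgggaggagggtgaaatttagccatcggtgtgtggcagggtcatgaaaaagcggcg
GTF3C1: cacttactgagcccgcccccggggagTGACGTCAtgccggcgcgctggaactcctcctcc

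The motif began 72 bases before the start in BDP1 and 128 bases before it in GTF3C1. The RefSeq table held 13 promoter windows for 8 of the 10 genes, with 5 for BRF1 alone. Of the 13 windows, 2 held the cAMP response element, as did 1.85% of all 35116 promoters. The E box CACGTG, which MYC binds, was in 3 windows (GTF3C2, GTF3C4 and GTF3C6) and in 7.26% of all promoters. The NF-κB site was in 2 windows (BRF1 and GTF3C4) and in 11.3% of all. The core of the CTCF motif was in 0 of the 13 and in 0.47% of all. Each motif was searched on both strands and no match overlapped another. The 4 motifs were chosen after the windows had been seen, and a match in these letters is neither a bound site nor a cause.

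BDP1, the SANT-domain subunit that locks TFIIIB onto DNA, read differently at each of its 3 probe sets. The probe set behind the choice of the group, 11721970_a_at, was dim and read 43.5, 43.3 and 43.0 under the NC label and 68.8, 62.4 and 75.5 under the CTCF-OE label. All values under the CTCF-OE label lay above all NC values, and the NC values hardly differed. Its log2 fold change was 0.66 (standard error 0.068, 95% interval 0.49 to 0.82), rank 6 among the rises on the array.

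The other dim probe set of BDP1, 11745668_a_at, read 42.4, 44.5 and 41.9 under the NC label and 60.1, 48.0 and 61.9 under the CTCF-OE label. These groups did not overlap either, and CTCF-OE replicate 2 was the lowest of its group at both dim probe sets while replicate 3 was the highest. The log2 fold change was 0.38 (standard error 0.095), with the adjusted p above the threshold.

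The brightest probe set of BDP1, 11721969_s_at, did not share the difference. It read 661, 602 and 661 under the NC label and 640, 668 and 651 under the CTCF-OE label, and the groups overlapped. The log2 fold change was 0.03 (standard error 0.049), with a 95% interval of -0.09 to 0.14. Measured within each array, 11721970_a_at minus the brightest probe set was -3.86 on the log2 scale in the mean of the NC arrays and -3.23 in that of the arrays labelled CTCF-OE. The 3 probe sets were designed on different source sequences. In the manufacturer's naming, the ending s_at marks probes shared by several transcripts, which can belong to different genes. The ending a_at marks probes shared by transcripts of 1 gene. The probe sequences and places of these probe sets were not analysed here. Whether they read different transcripts of BDP1, or also transcripts of other genes, was not tested.

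**Figure D1:**
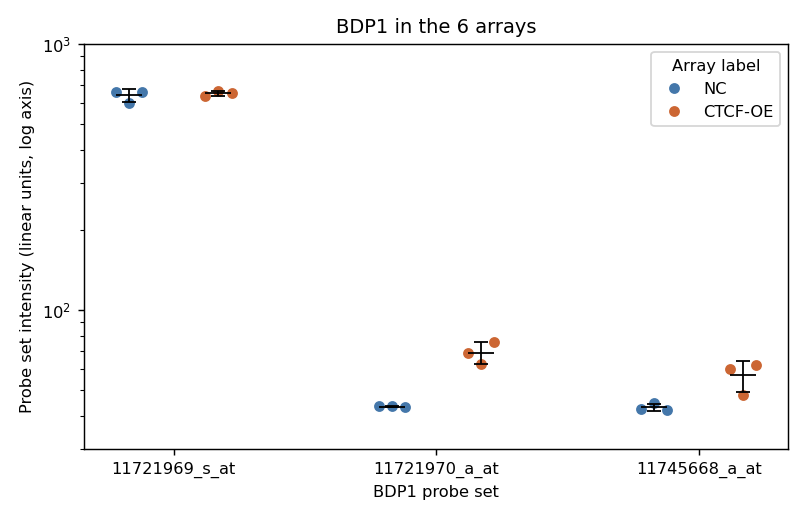
Intensity of the 3 BDP1 probe sets in each of the 6 arrays (linear units on a log axis), with points for arrays, horizontal marks for group means and bars for the SD (n = 3 each). The arrays labelled CTCF-OE lie above the NC arrays at 11721970_a_at and 11745668_a_at, whereas the groups overlap near 650 at 11721969_s_at (means 641 and 653).

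Across the 10 genes, 2 of 32 probe sets passed both thresholds of the fit over the whole array (adjusted p under 0.05 from limma and a fold change above 1.3), 1 higher in BDP1 and 1 lower in GTF3C3. Over all probe sets 0.637% passed, 0.191% higher and 0.446% lower. Nothing is read from the members' count, since the same comparison chose them. The BDP1 call was lost without CTCF-OE replicate 1, where the log2 fold change was 0.65, and the GTF3C3 call was lost in 4 of 6 such fits (without NC replicate 1, NC replicate 2, CTCF-OE replicate 2 or CTCF-OE replicate 3), with log2 fold changes of -0.38, -0.38, -0.36 and -0.38. The called probe sets were both dimmer than the median probe set, as were 13 of the 32. The median log2 fold change was -0.0001 over the 32 probe sets and 0.0003 over all tested, and 16 were above 0 and 16 below.

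**Figure D2:**
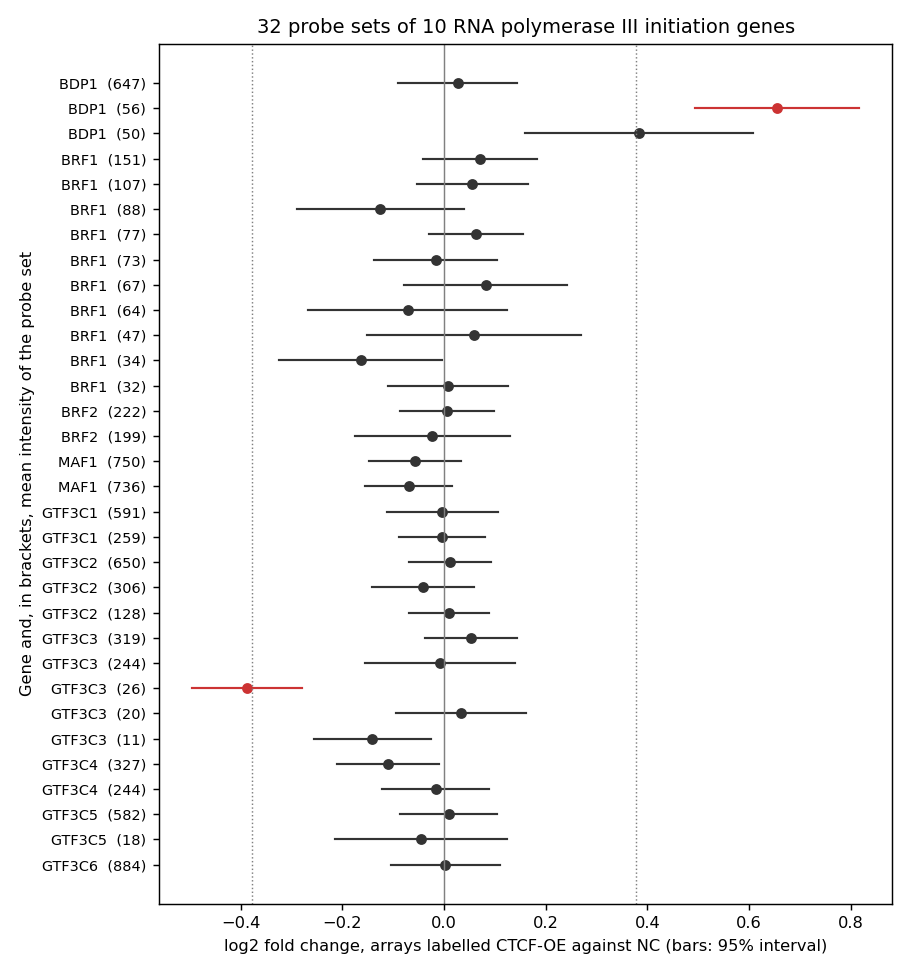
Log2 fold change by label (CTCF-OE against NC) for each of the 32 probe sets, ordered by gene and brightness, with the mean intensity in brackets and bars for the 95% interval. The probe sets past both thresholds are red, and dotted lines mark a 1.3-fold change. Of the 32, 25 (78.1%) lie within 0.1 of no change, against 70.7% of all probe sets tested.

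BRF1, the TFIIB-related subunit of TFIIIB, was read by 10 probe sets, more than any other of the genes, and none passed. Their log2 fold changes ran from -0.16 to 0.08 with a median of 0.03, 6 above 0 and 4 below. The brightest read 156, 146 and 141 under the NC label and 155, 153 and 158 under the CTCF-OE label, and these values overlapped. The probe set with the lowest fold change read 33.3, 35.4 and 39.6 under the NC label and 30.6, 32.8 and 32.7 under the CTCF-OE label. Several BRF1 probe sets share a source sequence, so they are not separate measurements of the gene.

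BRF2, the alternative subunit for upstream promoters, did not pass at its 2 probe sets. Its brighter one read 225, 225 and 215 under the NC label and 218, 222 and 226 under the CTCF-OE label, or 0.01 on the log2 scale (95% interval -0.09 to 0.10). With the brightest probe set of BDP1 (0.03) and of BRF1 (0.07), the best-lit reading of each TFIIIB gene was thus within 0.1 of no change. The brightest probe set of BDP1 is an s_at one. That of BRF1 is an x_at one, an ending that marks probes which also match other sequences. Whether either read its gene alone was not tested.

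MAF1, the repressor, read slightly lower in every array labelled CTCF-OE at its 2 probe sets, without passing the threshold. The brighter read 758, 790 and 747 under the NC label and 727, 739 and 740 under the CTCF-OE label. The other read 744, 773 and 746, then 714, 719 and 723, in the same order. The log2 fold changes were -0.06 (95% interval -0.15 to 0.03) and -0.07 (-0.16 to 0.02), and both probe sets come from the same source sequence. Groups did not overlap at 11 of the 32 probe sets, 4 higher and 7 lower, against 24.4% of all probe sets tested (11.6% higher and 12.8% lower).

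Among TFIIIC genes, GTF3C3, a tetratricopeptide-repeat subunit that contacts TFIIIB, had the called fall. Its probe set 11761590_at read 29.9, 30.2 and 29.0 under the NC label and 23.6, 21.5 and 22.3 under the CTCF-OE label, with a wide gap between the groups for values this close together. The log2 fold change was -0.39 (standard error 0.045, 95% interval -0.50 to -0.28), and -0.25 with a pseudocount of 16 in place of 1, which is below the 1.3-fold line. No detection call was used. Of 20 probe sets of 6 genes that mark other cell types (PTPRC, CD3E, PECAM1, CDH5, COL1A1 and ALB), with mean intensities of 6.35 to 113, 6 were brighter than the mean of 26.1 of this probe set, and 1 was brighter than the called probe set of BDP1 (mean 56.1). ESR1, which the type of this line implies to be dim, had means of 57.3 and 56.4 at its brightest probe sets. Its others had 31.2, 13.1 and 11.3. As in BDP1, the bright probe sets of GTF3C3 did not share the change. The brightest read 318, 305 and 315 under the NC label and 324, 318 and 331 under the CTCF-OE label, with a log2 fold change of 0.05 and a very narrow gap between the groups. The next, 11749438_a_at, is annotated to the same source sequence as the called probe set and had a log2 fold change of -0.01 (95% interval -0.15 to 0.14). The dimmest of the remaining probe sets, near 11 units, had -0.14 and the other had 0.03.

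GTF3C4, a TFIIIC subunit with histone acetyltransferase activity, read 328, 343 and 347 under the NC label and 313, 306 and 325 under the CTCF-OE label at its brighter probe set. The groups did not overlap, but the log2 fold change of -0.11 (95% interval -0.21 to -0.01) did not pass the adjusted threshold, and the other probe set had -0.02. This was the lowest value among the brightest probe sets of the 10 genes, and in the other 9 genes the 95% interval of the brightest held 0.

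The remaining TFIIIC genes stayed near their NC levels. GTF3C1, the large subunit that binds the internal promoter, had -0.003 and -0.004 at its 2 probe sets, the brighter of which read 583, 616 and 575 under the NC label and 573, 584 and 613 under the CTCF-OE label. GTF3C2, its partner in that binding, ranged from -0.04 to 0.01 over 3 probe sets, and GTF3C5, which binds the promoter box nearer the start, had 0.01 and -0.05. GTF3C6, the smallest subunit, read 868, 857 and 923 under the NC label and 861, 881 and 911 under the CTCF-OE label. This was its only probe set, the brightest of the 32. It is an s_at one, and whether it reads GTF3C6 alone was not tested. Across all TFIIIC and TFIIIB genes and MAF1, the 95% intervals of the brightest probe sets lay between -0.21 and 0.18, inside a 1.3-fold change. Those of BDP1, GTF3C1 and GTF3C6 are s_at ones and that of BRF1 is an x_at one. Such probe sets may also read other sequences.

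**Figure D3:**
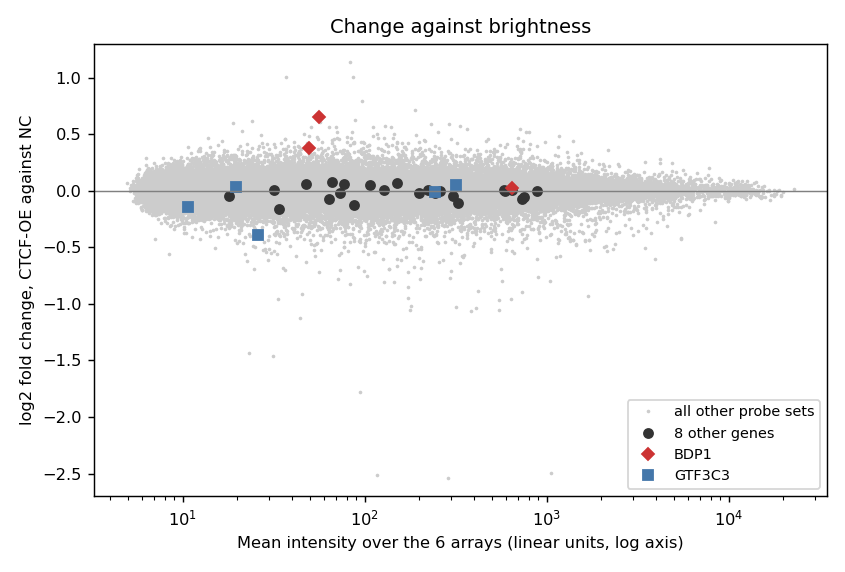
Log2 fold change (CTCF-OE against NC) plotted against the mean intensity over the 6 arrays (linear units, log axis) for all other probe sets (grey) and for those of BDP1, GTF3C3 and the 8 other genes. The member probe sets at or above the array median, 19 of 32, lie between -0.13 and 0.07, and the changes of BDP1 and GTF3C3 that passed the thresholds lie to the left.

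When a gene was read by its brightest probe set, 0 of the 10 passed both thresholds in a limma fit, against 99 of all 18155 genes. Of the 10, 1 was below an unadjusted p of 0.05. When the mean of its probe sets stood for the gene, 0 again passed, against 88 of 18155. By that mean, 2 of the 10 were below an unadjusted p of 0.05. Over all probe sets 17% were below it, and the share over all genes was not counted. Nothing about the 10 genes is read from these counts. In the fit of the means, BDP1 met the adjusted p threshold and missed the other. Its mean log2 fold change was 0.36 (standard error 0.052), just under the 1.3-fold line. That mean includes the probe set whose difference on these same arrays chose the group. It is therefore not a separate test of BDP1, and nothing is read from the threshold it met.

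The genes whose probe sets followed 11721970_a_at of BDP1 most closely over the 6 arrays, among 22727 probe sets at or above the median brightness, were HDLBP (Pearson r = 0.999), an RNA-binding protein, DISP2 (0.998), a membrane protein of the Dispatched family, NUFIP2 (0.998), CIAO2B (0.998), of iron-sulfur protein assembly, and RCOR3 (0.996), of the CoREST family. Their log2 fold changes were 0.10, 0.49, 0.16, 0.05 and 0.18. The likeness is a description over 6 arrays in 2 groups that share the difference between the groups, and the other dim probe set of BDP1 had r = 0.940 and the brightest 0.207.

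Related genes were read at 108 probe sets of 38 genes in 5 lists, 4 of them on polymerase III and its regulators and 1 on counterparts at other polymerases. Of these, 2 probe sets passed an adjusted p under 0.05 in limma and 0 also exceeded 1.3-fold, with 31 below an unadjusted p of 0.05. Over the whole array 2.08% passed an adjusted p under 0.05 and 17% were below an unadjusted p of 0.05. The 2 probe sets read POLR3C and CRCP, subunits found in this polymerase and in no other. In the list of such subunits 26 probe sets of 10 genes were read, 1 higher and 1 lower, with a median log2 fold change of 0.01.

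POLR3C, which forms a trimer with POLR3F and POLR3G that takes part in initiation, fell at 11721550_x_at. This probe set read 403, 435 and 425 under the NC label and 355, 361 and 355 under the CTCF-OE label, or -0.24 on the log2 scale (limma, standard error 0.042, adjusted p = 0.0434). Unlike in BDP1, all 3 probe sets of POLR3C lay lower without overlap, the others with -0.19 and -0.20 and adjusted p of 0.106 and 0.142 (limma). In its list 4 of 26 probe sets, these included, lay lower without overlap, and over the whole array 12.8% did. The passing probe set and 1 of the others share a source sequence, so they are not separate measurements. POLR3F and POLR3G had log2 fold changes of -0.07 to 0.05 over 4 probe sets.

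CRCP, a subunit of the stalk of the polymerase, rose at 11729277_x_at. It read 138, 142 and 146 under the NC label and 164, 162 and 167 under the CTCF-OE label, or 0.21 on the log2 scale (limma, standard error 0.039, adjusted p = 0.0478). Of its 6 probe sets, 5 lay higher without overlap, the sixth had 0.08, and the median was 0.20, with 2 of the 6 on the same source sequence. In its list 7 of 26 probe sets, these included, lay higher without overlap, and over the whole array 11.6% did. The passing probe sets of POLR3C and CRCP are both x_at, which marks probes that also match other sequences. Neither call held with any 1 array left out, when the adjusted p from limma ranged from 0.0709 to 0.163 for POLR3C and from 0.0775 to 0.176 for CRCP. The log2 fold changes kept their size in these smaller fits, from -0.27 to -0.21 for POLR3C and from 0.19 to 0.23 for CRCP.

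**Figure D4:**
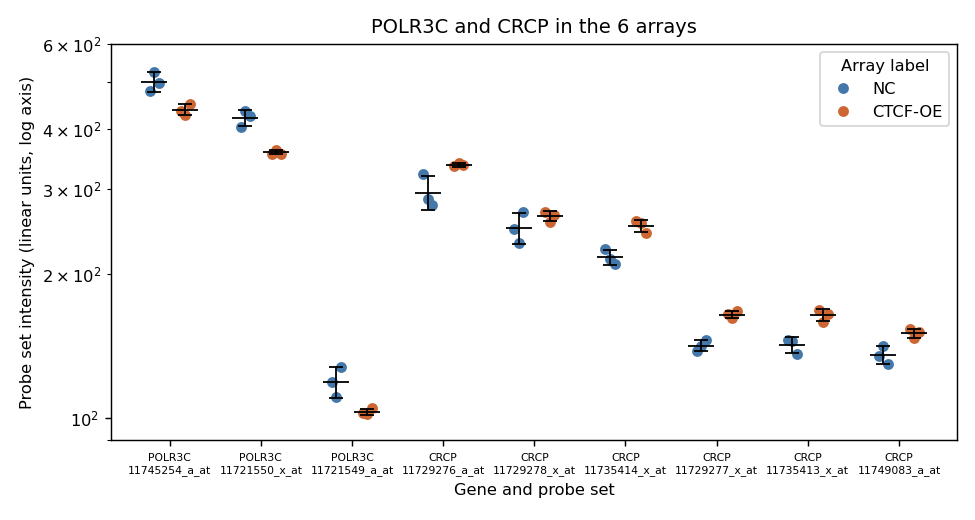
Intensity of the 3 POLR3C and 6 CRCP probe sets in each array (linear units on a log axis), with points for arrays, horizontal marks for group means and bars for the SD (n = 3 each). POLR3C lies lower in the arrays labelled CTCF-OE at all 3 probe sets, and CRCP lies higher without overlap at 5 of 6. Over all probe sets tested, 12.8% lie lower and 11.6% higher without overlap.

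In the other lists 0 probe sets passed an adjusted p under 0.05 in limma. Subunits shared with other polymerases had 6 of 19 probe sets below an unadjusted p of 0.05, and the log2 fold change was -0.18 at POLR2H and 0.11 at the brightest probe set of POLR2L. Promoter partners had 6 of 24, among them SNAPC4, the large subunit of the complex at upstream promoters (-0.17 at its 2 most changed probe sets). TBP, the TATA-binding protein of TFIIIB, ran from -0.07 to 0.15 over 3 probe sets, the last at one near 13 units, and GTF3A, the factor particular to the ribosomal RNA gene that this polymerase reads, from 0.01 to 0.03. Counterparts at other polymerases had 2 of 12, with GTF2B, the polymerase II relative of BRF1, at 0.0008. Regulators that act on TFIIIB had 8 of 27. MYC, which binds TFIIIB and raises its activity, had a log2 fold change of -0.19 (adjusted p = 0.0655 from limma) at its only probe set. The short RNAs that the polymerase makes could not be read. For 16 symbols of such RNAs, 0 probe sets were annotated to the symbol alone.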

How the data were processed

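RNA isolated with Trizol was turned into biotinylated cRNA and read on PrimeView arrays by the authors. Their deposited table holds linear probe set intensities with nearly equal distributions over the arrays; software, background correction and normalization are not given in the sources used here. After 102 control probe sets were set apart, log2(intensity + 1) of 49293 probe sets was fitted with limma 3.58.1 in R 4.3.3 (group only, Benjamini-Hochberg adjustment over all), so fold changes of dim probe sets are slightly understated. With only 3 arrays per group, their number limits the precision. Symbols came from the platform annotation, where 45064 probe sets had 1 symbol, 1756 had several (a repeated symbol was counted as 1), and 2473 had none listed. Members, lists and motifs were chosen with earlier results of these data known. All 10 members are described, context genes are named where they passed or stand for a role, and the 5 genes most like BDP1 were taken by Pearson correlation; context genes that did not pass were named after their values were seen. No source used here says that the replicate numbers pair the arrays, and they were not treated as pairs. After removal of group means, same-numbered arrays correlated at 0.012, 0.0054 and 0.0094. Such values cannot show whether same-numbered samples were handled together. The fit was tested on simulated data. Alternatives changed 1 choice at a time. Figures used matplotlib 3.10.9 in Python 3.11.15.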

Additional observations from a re-analysis of the deposited data

How the results depend on the processing

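The median log2 fold change of the member probe sets stayed between -0.01 and 0.01 over 12 alternatives. The members had 32 probe sets, but 31 without the dimmest 20% and 19 without those below the median. Called probe sets over the whole array numbered 312 after quantile normalization, 219 with a pseudocount of 16 and 372 with an intensity trend. They numbered 327 of 39434 without the dimmest 20% and 231 of 24647 without those below the median. There were 73 with the replicate number as a block, 1024 with no minimum fold change and 380 at an unadjusted p. Leaving out 1 array gave 144 to 244. Of the members, 1 probe set in 1 gene (BDP1) passed with a pseudocount of 16, and 0 in 0 genes passed with the replicate block (4 below an unadjusted p of 0.05 in limma) or when probe sets below the median were left out (2 below an unadjusted p of 0.05), which removes both called ones. With 1 array left out, 1 to 2 member probe sets in 1 to 2 genes passed. By the brightest probe set or the mean per gene 0 genes passed. With the replicate block the log2 fold changes of 0.66 for BDP1 and -0.39 for GTF3C3 were the same and no longer past the threshold. With 1 array left out, BDP1's brightest probe set ran from -0.019 (without NC replicate 2, where its sign turned) to 0.049. Its second dim probe set passed with an intensity trend (0.38), at an unadjusted p (0.38) and without CTCF-OE replicate 2 (0.50). For the 5 lists of related genes, counterparts at other polymerases included, the 2 probe sets past the adjusted threshold became 8 with a pseudocount of 16, 5 without the dimmest 20%, 13 without those below the median, 17 with an intensity trend, 0 with the replicate block (24 below an unadjusted p of 0.05), and 0 in each fit with 1 array left out (18 to 26). For these settings the share of all probe sets past the adjusted p alone was not counted, nor were the list probe sets left by the filters. The counts are therefore not read as a result about the lists. The cause of these shifts was not tested.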
